A study of Mus musculus with 24 samples.

Results

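Kinesin motor genes were followed across all 24 arrays of primary mouse alveolar type II cultures. They were taken as every probe outside the control spots whose gene name on the array is Kif or Kifc followed by a number. Such names stood on 66 probes of 42 genes, among 46592 genes or unnamed probes on the array. In the expression tests, counts and shares of all genes take each unnamed probe (22733 before any filter) as a gene of its own. One probe stood for each gene, the one with the highest mean log2 signal over the 24 arrays, and 17 genes had more than 1 probe. By their known roles 14 were placed with mitotic kinesins, 15 with transport kinesins, 6 with cilium and signalling kinesins and 7 with other or several roles. The cells had formed a monolayer over 3 days at an air-liquid interface before treatment, and no strain, age or genotype is given in the labels. In the NaHS experiment, 4 arrays each were of cells given 100 µM NaHS, a fast hydrogen sulfide donor, for 24 h, vehicle medium for 24 h, NaHS for 6 h and vehicle for 6 h. In the GYY4137 experiment, all 8 arrays were of cells given 100 µM GYY4137, a slow hydrogen sulfide donor, for 24 h, 4 in 85% O2 (hyperoxia) and 4 in 21% O2 (normoxia). Every array of that experiment carried the donor, so oxygen is compared in its presence alone. Nothing in the labels ties a replicate to a culture or an animal of its own, so the p-values measure the spread between these samples, which may be technical.

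Kinesins are motor proteins that use ATP to move along microtubules or to take them apart. Mitotic kinesins build the spindle, move chromosomes and finish the division of the cell, and most of their genes are transcribed mainly in the late phases of the cell cycle. Transport kinesins carry vesicles, organelles and protein complexes through the cytoplasm or along cilia, in dividing and resting cells alike. Alveolar type II cells make surfactant and can divide to restore the alveolar epithelium.

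The promoters of many mitotic kinesin genes hold a short element that the choice by name did not use. The cell cycle homology region, here the letters TTTGAA or TTCGAA on either strand, is known as a site of the complexes that hold late cell cycle genes silent in resting cells. RefSeq promoters (GRCm38.p6), from 250 bases before to 50 bases after the start, were matched for 33 of the 42 genes. Not matched were Kif20a, Kif5a, Kif5b, Kif13b, Kifc2, Kifc3, Kif19a, Kif21b and Kif4-ps. The transport promoters therefore leave out Kif5a and Kifc2, which rose in 85% O2. The letters stood in 11 of 13 mitotic promoters, in 1 of 10 transport promoters, in 2 of 5 of the cilium and signalling genes and in 1 of 5 of the remaining genes, against 21.7% of 27025 genes with a promoter. Within 50 bases of the start they stood in 9 of 13 mitotic promoters and in 6.12% of all genes. There they also stood in 1 of 10 transport promoters, 1 of 5 of the cilium and signalling genes and 1 of 5 of the remaining genes. CCAAT, the motif bound by NF-Y, stood on either strand in 9 of 13 mitotic promoters, in 3 of 10 transport promoters and in 41.1% of all genes. It also stood in 3 of 5 of the cilium and signalling genes and in 1 of 5 of the remaining genes. The motifs can share a letter at their ends and were counted separately. A match is a description of these windows and not a shown binding site. Shown here are the promoters of 4 mitotic kinesins that fell in 85% O2 and of the transport kinesin Kif1b, which holds no such match and whose rise stood near the threshold. The letters and the direction did not go together in every gene. Kif1a, which rose the most of the transport kinesins, is the one among them with a match, at -44 in 1 of its 2 promoters, and Kif18a, which fell, holds none. Each runs 5′ to 3′ on the gene's own strand, with matches to TTTGAA or its reverse complement in capitals. They lie at chr19:37376132-37376431 (plus strand) for Kif11, chr19:34922108-34922407 (plus strand) for Kif20b, chr9:61946750-61947049 (minus strand) for Kif23, chr7:127042371-127042670 (minus strand) for Kif22 and chr4:149307649-149307948 (minus strand) for Kif1b.
Kif11: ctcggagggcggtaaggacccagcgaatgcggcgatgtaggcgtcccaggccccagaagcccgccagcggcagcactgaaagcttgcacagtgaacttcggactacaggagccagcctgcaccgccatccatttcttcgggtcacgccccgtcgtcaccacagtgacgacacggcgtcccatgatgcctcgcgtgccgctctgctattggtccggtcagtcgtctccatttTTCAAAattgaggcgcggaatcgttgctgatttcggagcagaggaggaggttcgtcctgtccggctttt
Kif20b: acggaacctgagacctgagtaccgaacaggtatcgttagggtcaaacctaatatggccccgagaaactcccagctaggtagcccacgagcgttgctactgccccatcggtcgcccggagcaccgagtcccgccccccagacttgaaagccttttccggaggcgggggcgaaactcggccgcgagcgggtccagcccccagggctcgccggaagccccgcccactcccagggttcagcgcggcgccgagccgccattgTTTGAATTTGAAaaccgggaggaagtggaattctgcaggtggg
Kif23: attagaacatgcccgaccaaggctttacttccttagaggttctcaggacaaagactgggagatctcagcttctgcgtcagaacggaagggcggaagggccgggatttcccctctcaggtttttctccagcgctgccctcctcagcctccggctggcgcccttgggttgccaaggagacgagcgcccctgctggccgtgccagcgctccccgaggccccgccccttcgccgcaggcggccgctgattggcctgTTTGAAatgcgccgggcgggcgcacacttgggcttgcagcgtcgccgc
Kif22: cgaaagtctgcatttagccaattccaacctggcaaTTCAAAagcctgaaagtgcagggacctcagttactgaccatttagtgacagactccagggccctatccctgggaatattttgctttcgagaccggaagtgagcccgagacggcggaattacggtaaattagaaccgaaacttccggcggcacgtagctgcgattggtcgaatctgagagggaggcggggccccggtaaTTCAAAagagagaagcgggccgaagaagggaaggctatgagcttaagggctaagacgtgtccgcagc
Kif1b: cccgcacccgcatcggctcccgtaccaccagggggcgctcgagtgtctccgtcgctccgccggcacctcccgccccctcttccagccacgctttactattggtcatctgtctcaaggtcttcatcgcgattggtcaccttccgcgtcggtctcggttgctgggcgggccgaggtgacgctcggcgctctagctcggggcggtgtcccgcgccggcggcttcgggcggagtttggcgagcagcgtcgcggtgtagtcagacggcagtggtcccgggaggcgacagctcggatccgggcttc
Counted from the start, the match began at -19 in Kif11 and at 3 in Kif23, and a pair of matches began at 8 and 14 in Kif20b. Kif22 held one match at -17 and another at -215.

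Of the 42 genes, 40 were tested in each experiment, having passed a filter that asked for a signal well above background on at least 4 of its arrays. Kif2b, a mitotic microtubule depolymerase, was not well above background on any array, and Kif27, a relative of Kif7, was so on too few. On all 24 arrays, 35 kinesin genes were well above background, and 0 spots were saturated. The share of probes well above background was 54.8 to 57.2% on slide 1 and 67.7 to 73.9% on slide 2 of the NaHS experiment. Each of these slides held 2 arrays of every group. The share was 69.4 to 77.5% on slide 4, which held all 85% O2 arrays, and 71.5 to 77.1% on slide 3, which held all 21% O2 arrays. Slide and oxygen therefore cannot be told apart. All 24 h arrays of the NaHS experiment lay in row 2 of their slide and all 6 h arrays in row 1, so row and time cannot be told apart either. Of 10 type II markers, 8 or 9 were well above background on all 4 arrays of each group, while Slc34a2 was so on no array of 5 of the groups. All 8 fibroblast markers and all 7 smooth muscle and pericyte markers were also well above background on every array.

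In 85% O2 the mitotic kinesins were lower and a few transport kinesins were higher than in 21% O2, both under GYY4137. Of the 40 kinesins tested, 16 passed an adjusted p of 0.05 (limma, Benjamini-Hochberg over all 34633 genes tested), against 15.8% of all genes tested. Lower were 11 of 13 mitotic kinesins, against 5.57% of all genes, and none of the 13 had a positive difference. Higher were 4 of 15 transport kinesins, against 10.2% of all genes, and Kif21a among the others. In the same 11 mitotic genes the 85% O2 arrays all lay below the 21% O2 arrays, as in 8.36% of all genes, and in 5 transport genes they all lay above, as in 14.7% of all genes. The median log2 difference was -1.84 over the mitotic kinesins, 0.25 over the transport kinesins and 0.066 over all genes tested. With each array centred on its median instead, the median was -1.98 over mitotic kinesins, 0.11 over transport kinesins and -0.078 over all genes. That scaling called 3 kinesins higher and 12 lower, where the main one called 5 higher and 11 lower. The transport median also turned to -0.045 without the mainly neuronal Kif1a, Kif3c, Kif5a, Kif5c, Kif17 and Kifc2. Over all genes the split moved with the scaling, with 3548 genes higher and 1929 lower by the main scaling, 1962 and 3356 with median centring and 2737 and 2592 with quantile normalization. All levels are log2 processed signals minus the 75th percentile of their array, in the order of replicates 1 to 4, and errors are standard errors unless named SD.

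**Figure D1:**
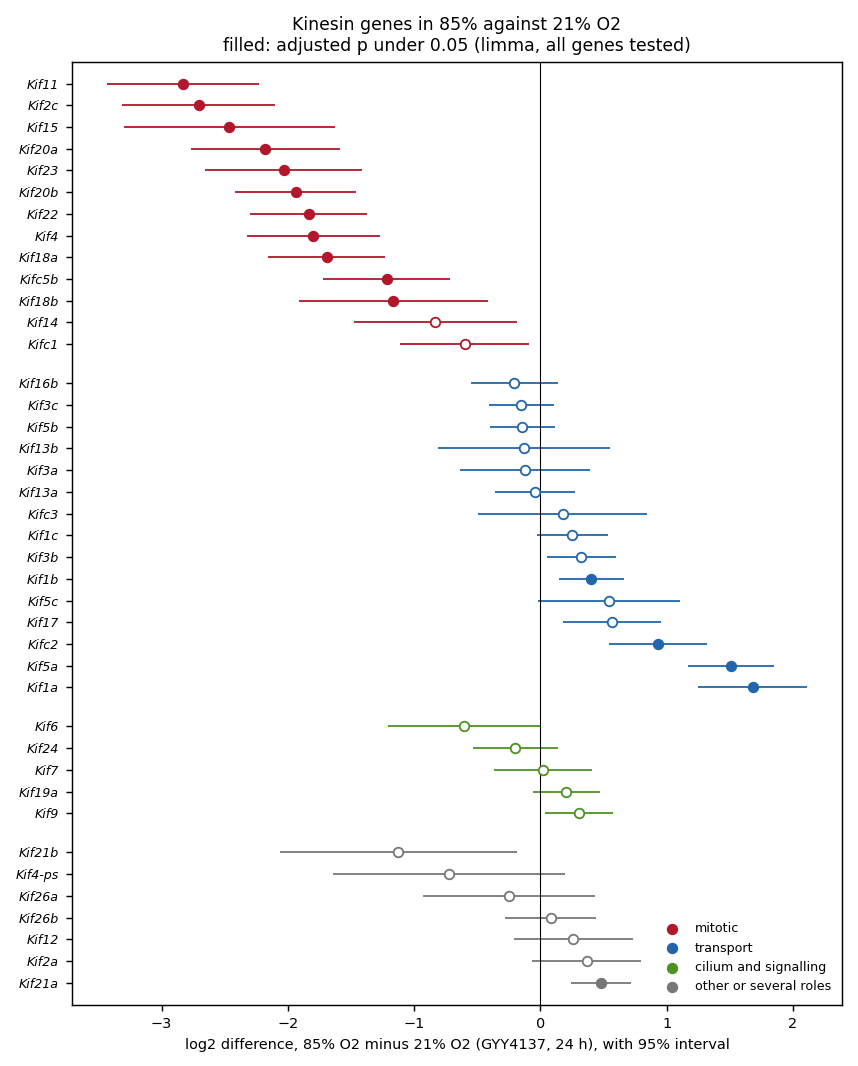
Log2 differences (x axis, 85% minus 21% O2 under GYY4137, 4 arrays each) with 95% intervals for the 40 kinesin genes tested, listed down the page by class. Filled points passed an adjusted p of 0.05 in limma over all genes tested; the 11 filled mitotic points run between -2.83 and -1.17, and the 4 filled transport points between 0.41 and 1.68.

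Motors and depolymerases of the spindle held the 3 largest falls. Kif11, the motor that pushes the spindle poles apart, had levels of -2.98, -3.32, -3.45 and -2.90 in 85% O2, against -0.15, -0.52, 0.28 and -0.94 in 21% O2. Every 85% O2 array lay below every 21% O2 array, and Kif11 fell by 2.83 ± 0.26 on the log2 scale, 7.11-fold lower (adjusted p = 0.00149, limma). Kif15, a spindle motor that can stand in for Kif11, had -3.93, -5.13, -4.27 and -3.34 in 85% O2, against -1.38, -1.59, -1.61 and -2.24 in 21% O2. Its groups did not overlap either, with a fall of 2.46 ± 0.37 (adjusted p = 0.0062, limma), and 3 of its 4 arrays in 85% O2 were well above background. Kif2c, which takes apart wrongly attached microtubules at centromeres, had -3.22, -3.79, -3.26 and -2.92 in 85% O2, against -0.33, -0.64, -0.19 and -1.22 in 21% O2. It was lower on all 4 arrays by 6.53-fold (-2.71 ± 0.26, adjusted p = 0.00166, limma), and its second probe had -2.51 ± 0.31 (adjusted p = 0.00333, limma over 41606 probes). Kif18a, which damps the movements of chromosomes at the spindle equator, had -2.66, -3.13, -2.72 and -2.74 in 85% O2, against -0.71, -1.19, -0.97 and -1.59 in 21% O2. The gap between its groups was wider than the spread within either, and it fell by 1.69 ± 0.20 (adjusted p = 0.0033, limma). Its relative Kif18b, which acts on astral microtubules, ranged over -3.16 to -1.76 in 85% O2 and -1.72 to -0.78 in 21% O2. The nearest arrays of Kif18b were almost level, and its fall of 1.17 ± 0.33 stood close to the threshold (adjusted p = 0.046, limma). With the replicate number as a block the adjusted p of Kif18b was 0.0691, and without any single array other than 21% O2 replicate 4 it was between 0.0504 and 0.106. The Kif11 probe lies at chr19:37495755-37495814 (plus strand) and that of Kif2c at chr4:116832904-116832963 (minus strand) in mm9, per the array files, which do not state exon or UTR.

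The chromokinesins, which bind chromosome arms and push them to the spindle equator, moved the same way. Kif22 had 0.89, 0.69, 0.78 and 1.15 in 85% O2, against 2.88, 2.67, 3.09 and 2.20 in 21% O2. Its groups were apart by more than the range within 85% O2, and Kif22 fell by 1.84 ± 0.20, 3.57-fold lower (adjusted p = 0.00258, limma). Kif4, which also works with Prc1 at the middle of the late spindle, had -1.55, -1.72, -1.44 and -1.26 in 85% O2, against 0.66, 0.44, 0.50 and -0.37 in 21% O2. Kif4 fell by 1.80 ± 0.23 (adjusted p = 0.00404, limma), with replicate 4 of 21% O2 well below the other arrays of its group. Kif4-ps, a pseudogene name on the array, had a difference of -0.72 ± 0.40 (adjusted p = 0.236, limma), and whether the probes of both names catch the same transcript was not tested.

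Kinesins of the central spindle and of cytokinesis were also lower, with 1 that did not pass. Kif20a, which brings the Aurora B complex to the central spindle, had 0.86, 0.13, 0.87 and 0.82 in 85% O2, against 3.22, 3.06, 2.88 and 2.22 in 21% O2. The groups stood more than 1 log2 unit apart, and Kif20a fell by 2.18 ± 0.26, 4.52-fold lower (adjusted p = 0.00314, limma). Kif23, which forms the centralspindlin complex with Racgap1, had -1.33, -1.74, -1.19 and -0.54 in 85% O2, against 1.06, 0.90, 1.05 and 0.33 in 21% O2. It fell by 2.03 ± 0.27 (adjusted p = 0.00437, limma), again with no overlap. Kif20b, needed late in cytokinesis, had -0.60, -0.96, -0.61 and -0.32 in 85% O2, against 1.54, 1.33, 1.58 and 0.80 in 21% O2. All its 85% O2 arrays were below 0 and all its 21% O2 arrays above, and it fell by 1.94 ± 0.21 (adjusted p = 0.00243, limma). Kif14, which works with citron kinase in cytokinesis, did not pass, with a difference of -0.83 ± 0.28 (95% interval -1.48 to -0.19, adjusted p = 0.0782, limma) and groups that overlapped. The Kif14 probe named after the RefSeq transcript was dimmer (mean log2 signal 2.31, against 5.35) and was not tested here. In vehicle at 24 h the chosen probe had -4.11 and -4.66 on slide 1 and -2.77 and -2.92 on slide 2.

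Kifc1, a minus-end directed motor that focuses the spindle poles, had the smallest difference of the class. Its levels were 0.92, 0.57, 0.93 and 1.23 in 85% O2, against 1.76, 1.73, 1.63 and 0.92 in 21% O2. Replicate 4 of 21% O2 lay among the 85% O2 arrays, and the difference of -0.60 ± 0.22 missed the threshold (95% interval -1.11 to -0.09, adjusted p = 0.101, limma). Without that array the difference was -0.80 (adjusted p = 0.0321, limma). Kifc5b, a close copy of Kifc1 in mouse, had -4.51, -4.91, -4.40 and -4.07 in 85% O2, against -3.18, -2.94, -3.20 and -3.70 in 21% O2. Its groups did not overlap and it fell by 1.22 ± 0.22 (adjusted p = 0.0115, limma), but either probe may also catch the other gene's transcript, which was not tested.

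Partners of these motors had differences in the same direction. Of 19 spindle and cytokinesis partners tested, 18 were lower in 85% O2 and none higher, against 5.57% and 10.2% of all genes. Their median log2 difference was -2.08. Racgap1, the partner of Kif23, fell by 2.33 ± 0.18 (adjusted p = 0.00146, limma), and Plk1, a mitotic kinase, fell by 2.86 ± 0.27 (adjusted p = 0.00151, limma). Anln, a scaffold of the cleavage furrow, fell by 2.30 ± 0.20, and Cdk1, the mitotic cyclin-dependent kinase, fell by 2.37 ± 0.21. The partner that did not pass, named here after its value was seen, was Numa1 of the spindle poles, with -0.0087 (adjusted p = 0.960, limma). In these bulk cultures, fewer dividing cells and less RNA of these genes per cell cannot be told apart. Beside these falls, none of 8 fibroblast markers was positive (1 lower, median -0.40), and their mean level ran over 3.30 to 4.18 on 85% O2 arrays and 3.88 to 4.39 on 21% O2 arrays. The 9 type II markers tested had a median of -0.30 with 1 lower, and the mean level over all 10 was -0.34 to 0.45 in 85% O2 and -0.35 to 0.93 in 21% O2. Of 7 smooth muscle and pericyte markers 1 was higher and 1 lower (median -0.40), with a mean level of 4.10 to 4.50 in 85% O2 and 4.35 to 4.74 in 21% O2. Of 8 macrophage markers 6 were positive and none passed (median 0.64), with a mean level of -2.41 to -0.45 in 85% O2 and -2.46 to -1.53 in 21% O2. All 4 club markers tested were positive and none passed (median 0.83), with a mean level over 5 of -3.54 to -2.65 in 85% O2 and -4.59 to -3.16 in 21% O2. Of 6 endothelial markers 5 were positive and 1 was higher (median 0.59), with a mean level of -2.43 to -1.90 in 85% O2 and -2.84 to -2.56 in 21% O2. Of 6 ciliated cell markers tested 2 were higher and none lower (median 0.35), with a mean level over 8 of -2.88 to -2.26 in 85% O2 and -3.30 to -2.83 in 21% O2. Ccdc39 of the ciliated list was above background on no 21% O2 array. Of the remaining lists, type I (6 genes, median -0.09), basal (4 genes, median -0.08) and lymphocyte markers (5 genes, median 0.28) had none that passed. Over all genes, 10.2% were higher and 5.57% lower. The part of these markers in the result was not tested.

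Transport kinesins split into a few that rose and a majority that did not pass. Kif1a, which carries synaptic vesicle precursors in neurons, had levels of 2.24, 2.02, 2.28 and 2.76 in 85% O2, against 0.96, 0.67, 0.52 and 0.42 in 21% O2. The groups were more than 1 log2 unit apart, and Kif1a rose by 1.68 ± 0.19 on the log2 scale, 3.21-fold higher (adjusted p = 0.00274, limma). Its second probe rose by 1.48 ± 0.23 (adjusted p = 0.00682, limma), and the chosen probe lies at chr1:94912112-94912171 (minus strand) in mm9. Kif5a, the mainly neuronal heavy chain of conventional kinesin, had -2.36, -1.93, -1.76 and -1.96 in 85% O2, against -3.65, -3.36, -3.50 and -3.53 in 21% O2. It rose by 1.51 ± 0.15, 2.85-fold higher, with no overlap (adjusted p = 0.0019, limma). A second Kif5a probe had a difference of 0.22 ± 0.62 (adjusted p = 0.824, limma), and with the mean of both probes the difference was 0.87 (adjusted p = 0.111). Kifc2, a minus-end directed motor of neuronal dendrites, had -1.03, -0.99, -0.97 and -0.56 in 85% O2, against -1.79, -1.81, -2.15 and -1.54 in 21% O2. Its groups did not overlap, and it rose by 0.93 ± 0.17, 1.91-fold higher (adjusted p = 0.0118, limma).

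Kif1b, a carrier of mitochondria and synaptic vesicle precursors, had 3.19, 3.14, 3.17 and 3.23 in 85% O2, against 2.70, 2.85, 2.61 and 2.95 in 21% O2. The 85% O2 arrays lay close together above the others, and the rise of 0.41 ± 0.11 was near the threshold (adjusted p = 0.0459, limma). The second Kif1b probe had a difference of -0.35 ± 0.13 (adjusted p = 0.106, limma), and with the mean of both the difference was 0.027 (adjusted p = 0.880). With the replicate number as a block the adjusted p of Kif1b was 0.0726 and with median centring 0.169. It ran between 0.0635 and 0.1085 without any single array other than 21% O2 replicate 4.

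The general transport motors did not pass in either direction. Kif5b, the ubiquitous heavy chain of conventional kinesin, had 1.25, 1.22, 1.36 and 1.47 in 85% O2, against 1.47, 1.61, 1.35 and 1.44 in 21% O2. Its values overlapped, with a difference of -0.14 ± 0.11 (95% interval -0.40 to 0.12, adjusted p = 0.408, limma). Kif3a, a subunit of the motor that carries cargo into cilia, had 3.03, 2.33, 2.19 and 2.04 in 85% O2, against 2.65, 2.56, 2.22 and 2.65 in 21% O2. One 85% O2 array was above all others, and the difference was -0.12 ± 0.22 (95% interval -0.64 to 0.39, adjusted p = 0.729, limma), or 0.088 with the mean of its probes. Kif1c, a motor of vesicle traffic between Golgi and endoplasmic reticulum, had 3.53, 3.72, 3.89 and 3.83 in 85% O2, against 3.52, 3.53, 3.58 and 3.34 in 21% O2. The lowest 85% O2 array of Kif1c lay within the range of 21% O2, and its difference was 0.25 ± 0.12 (95% interval -0.03 to 0.53, adjusted p = 0.185, limma). Kif17, a motor of dendrites and cilia, had a difference of 0.57 ± 0.17 with no overlap (adjusted p = 0.0559, limma), and Kif3b, the partner of Kif3a, had 0.32 ± 0.12 (adjusted p = 0.0977). The second probes of both pointed the other way without passing, with -0.26 ± 0.32 for Kif17 and -0.31 ± 0.41 for Kif3b (adjusted p = 0.594 and 0.627, limma over 41606 probes). The 6 other transport kinesins, Kif3c, Kif5c, Kif13a, Kif13b, Kif16b and Kifc3, had differences between -0.21 and 0.54 and did not pass. Of 20 transport adaptors and dynein subunits 1 was higher, Dctn2 of the dynactin complex (0.74 ± 0.14, adjusted p = 0.0141, limma), and none lower. Over all genes, 10.2% were higher and 5.57% lower, and the median of this list was 0.13.

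Among the remaining kinesins, Kif21a, which limits microtubule growth at the cell cortex, had 1.15, 0.99, 1.13 and 1.12 in 85% O2, against 0.62, 0.60, 0.51 and 0.73 in 21% O2. It rose by 0.48 ± 0.10 with no overlap (adjusted p = 0.021, limma). The adjusted p of Kif21a was 0.073 with median centring, and 0.0528 to 0.0696 without 21% O2 replicate 2 or without 85% O2 replicate 1, 3 or 4. Its relative Kif21b had a difference of -1.13 ± 0.41 with overlapping groups (adjusted p = 0.0944, limma, and 0.0432 with the replicate block). None of the 5 cilium and signalling kinesins tested passed, with differences between -0.60 for Kif6 and 0.31 for Kif9. For 3 genes a probe other than the chosen one passed alone (limma over 41606 probes). The other Kif26a probe had 1.51 ± 0.32 against -0.25 for the chosen one, one Kif6 probe had -0.90 ± 0.20 and one Kif2a probe had 0.57 ± 0.12. Of the 14 kinesins with several tested probes, 0 had probes that passed in opposite directions. Kif27 was well above background on 2 of 4 arrays in 85% O2 and on 0 of 4 in 21% O2, and was not tested. Its levels overlapped, with -5.93 to -4.63 in 85% O2 and -6.52 to -5.49 in 21% O2.

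Averaged over a class, the mitotic kinesins differed more between the groups than the transport kinesins. Each gene was centred on its mean over the arrays of its experiment, and the deviations were averaged over the class. The mitotic mean was -0.90 ± 0.27 in 85% O2 and 0.90 ± 0.34 in 21% O2 (SD, n = 4 each). The transport mean was 0.19 ± 0.03 in 85% O2 and -0.19 ± 0.06 in 21% O2 (SD, n = 4 each). In the NaHS experiment the mitotic mean was -0.13 ± 0.20 with NaHS at 24 h, -0.39 ± 0.17 with vehicle at 24 h, 0.23 ± 0.14 with NaHS at 6 h and 0.28 ± 0.27 with vehicle at 6 h (SD, n = 4 each). Within most groups the mitotic members often shared their lowest array. Replicate 2 of 85% O2 was the lowest of its group in 11 of 13 mitotic kinesins, and replicate 4 of 21% O2 in 12 of 13. Replicate 2 was also the lowest in 11 of 13 among NaHS 24 h arrays and in 12 of 13 among vehicle 6 h arrays. Among vehicle 24 h arrays replicate 2 was lowest in 8 and replicate 1 in 4 of the 13, and among NaHS 6 h arrays replicate 3 was lowest in 10 and replicate 2 in 0. In the transport class no replicate was lowest in more than 9 of 15 genes. These are descriptions of classes placed by role, and no test was made on them.

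**Figure D2:**
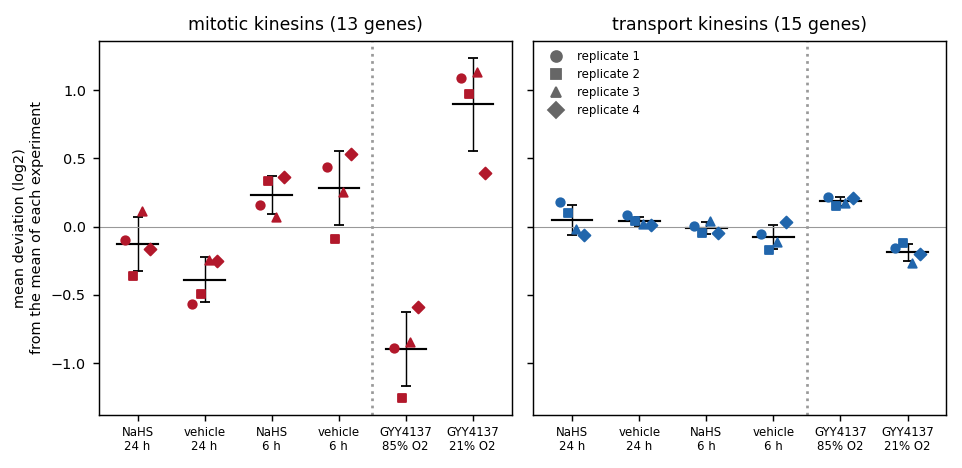
Mean deviation of the 13 mitotic (left) and 15 transport kinesins (right) tested, in log2 units from the mean of their own experiment, on each array (points, shaped by replicate), with group mean and SD in black; the dotted line parts the experiments. Mitotic means of 85% O2 arrays lie between -1.25 and -0.59, those of 21% O2 arrays between 0.39 and 1.13.

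**Figure D3:**
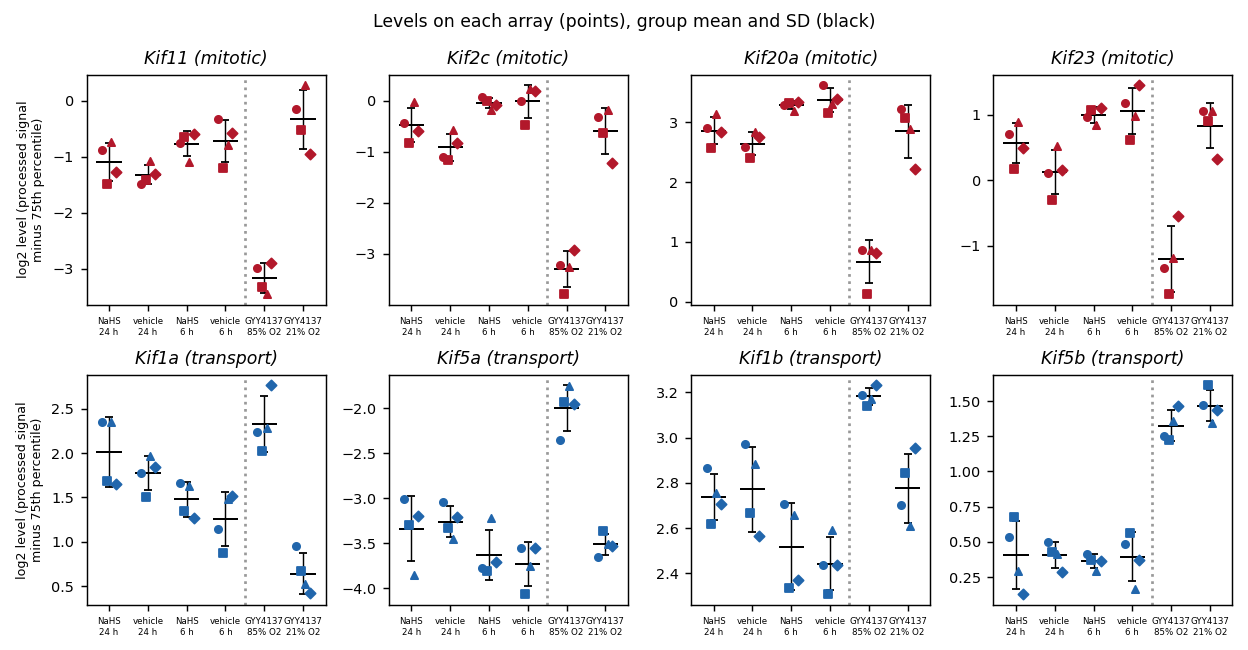
Levels (log2 processed signal minus the 75th percentile of the array) of 4 mitotic kinesins (top row) and 4 transport kinesins (bottom row) on each of the 24 arrays, by group, with group mean and SD in black; each panel has its own y axis, and levels of different probes or experiments are not comparable. On every 85% O2 array Kif11, Kif2c, Kif20a and Kif23 are below the 21% O2 arrays and Kif1a, Kif5a and Kif1b above them, while Kif5b overlaps.

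Over time in culture with vehicle, all 13 mitotic kinesins had negative differences, and 1 passed. Of 40 kinesins, 1 passed for 24 h against 6 h in vehicle (limma, adjusted p over all 33245 genes tested), against 0.614% of all genes in either direction and 0.226% lower. The mitotic median was -0.71, and in 8 of the 13 the 24 h arrays lay wholly below the 6 h arrays, as in 2.88% of all genes. Among the other kinesins 3 had 24 h arrays wholly above the 6 h arrays, Kif5a, Kifc2 and Kif24, as had 3.89% of all genes, and none of them passed. The transport median was 0.034 and that of all genes 0.015. Kif20a had levels of 2.58, 2.40, 2.84 and 2.75 at 24 h, against 3.62, 3.14, 3.30 and 3.39 at 6 h. The times did not overlap, and Kif20a fell by 0.72 ± 0.14, 1.65-fold lower (adjusted p = 0.0372, limma). Within slide 1 the Kif20a difference was -0.75 and within slide 2 it was -0.69. The call was lost without any single array other than vehicle 6 h replicate 2 or NaHS 24 h replicates 2 and 3, with adjusted p between 0.0535 and 0.126. It was also lost with median centring (adjusted p = 0.99998), with no filter on dim probes (adjusted p = 0.0702) and with the vehicle arrays fitted alone (adjusted p = 0.353).

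With slide as a block, 7 mitotic kinesins were lower and Kif1b higher at 24 h, against 0.911% and 1.21% of all genes in those directions. With the replicate number as a block, the same 7 were lower and none higher, against 1.12% and 1.56% of all genes. The 7 were Kif2c, Kif4, Kif18b, Kif20a, Kif20b, Kif22 and Kif23. Kif23 had 0.12, -0.31, 0.52 and 0.16 at 24 h, against 1.19, 0.61, 0.97 and 1.45 at 6 h. Its arrays did not overlap, and its difference was -0.93 ± 0.21 (adjusted p = 0.0615, limma, and 0.0318 with slide as a block). Kif2c had -1.10, -1.16, -0.57 and -0.84 at 24 h, against -0.01, -0.48, 0.22 and 0.20 at 6 h. Its lowest 6 h array was just above its highest 24 h array, with a difference of -0.90 ± 0.19 (adjusted p = 0.0554, limma, and 0.0251 with slide as a block). Kif11 had -1.48, -1.41, -1.08 and -1.31 at 24 h, against -0.33, -1.20, -0.80 and -0.57 at 6 h. One 6 h array of Kif11 lay among the 24 h arrays, and its difference of -0.60 ± 0.20 did not pass (adjusted p = 0.232, limma, and 0.139 with slide as a block). Kifc1 had 0.69, 1.26, 1.75 and 1.71 at 24 h, against 2.35, 1.34, 2.26 and 2.27 at 6 h. Those groups overlapped through 1 array at 6 h, with a difference of -0.70 ± 0.25 (adjusted p = 0.264, limma). Without that array, vehicle 6 h replicate 2, 8 kinesins were lower and none higher, against 0.508% of all genes lower. Without NaHS 24 h replicate 3, 3 were lower, against 0.304% of all genes.

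Among partners, 3 of 19 were lower at 24 h in vehicle, Racgap1 (-0.78 ± 0.14, adjusted p = 0.0311, limma), Birc5 of the Aurora B complex (-0.81 ± 0.16, adjusted p = 0.0442) and the kinase Aurka (-0.73 ± 0.15, adjusted p = 0.0487). Over all genes 0.226% were lower in that fit. None of the 19 partners was positive, and their median was -0.70. With the slide block 7 were lower and with the replicate block 12, against 0.911% and 1.12% of all genes. None of 20 transport adaptors and dynein subunits passed, with a median of 0.14. Of the transport kinesins, Kif1b had 2.97, 2.67, 2.88 and 2.56 at 24 h, against 2.44, 2.31, 2.59 and 2.44 at 6 h. One 24 h array lay just within the 6 h range, and the difference was 0.33 ± 0.12 (adjusted p = 0.279, limma, 0.0473 with slide as a block and 0.0575 with the replicate block). Kif5b had a difference of 0.012 ± 0.12 and Kif3a one of 0.0040 ± 0.13. Beside these values, all 5 club cell markers were negative (1 lower, median -2.88), with a mean level of -4.66 to -2.93 at 24 h and -1.80 to 1.06 at 6 h. All 7 ciliated cell markers tested were also negative and none passed (median -0.63), with a mean level over 8 of -3.79 to -3.10 at 24 h and -3.00 to -0.64 at 6 h. At 24 h Scgb3a2 of the club list and Dnah5, Dnah9 and Ccdc39 of the ciliated list were above background on no array. All 4 basal cell markers were negative and none passed (median -0.32), with a mean level of -1.44 to -0.50 at 24 h and -1.45 to -0.05 at 6 h. All 7 smooth muscle and pericyte markers were positive (1 higher, median 0.88), with a mean level of 4.37 to 4.63 at 24 h and 3.13 to 4.03 at 6 h. All 8 macrophage markers were positive and none passed (median 0.91), with a mean level of -2.10 to -1.04 at 24 h and -3.06 to -1.90 at 6 h, and C1qa among them was above background on no array of either group. Of 9 type II markers 2 were positive and 1 was lower (median -0.12, lowest difference -3.14). The mean level over all 10 type II markers was -0.39 to 0.39 at 24 h and 0.57 to 1.53 at 6 h, without overlap. Fibroblast markers had a median of 0.062 (1 of 8 higher). Over all genes, 0.388% were higher and 0.226% lower. The part of these markers in the result was not tested.

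With NaHS present, 0 of 40 kinesins passed for 24 h against 6 h in limma, against 0.0271% of all genes, and 7 had an unadjusted p under 0.05, against 7.29% of all genes. With slide as a block 0 kinesins passed as well, against 0.0993% of all genes, and 8 had an unadjusted p under 0.05, against 13.7%. With the replicate number as a block 0 passed, against 0.105% of all genes, and 9 had an unadjusted p under 0.05, against 14.6%. All 13 mitotic kinesins were again negative, with a median of -0.37, and in 4 the 24 h arrays lay wholly below the 6 h arrays, as in 2.16% of all genes. These were Kif20a, Kif20b, Kif22 and Kifc1. Kif19a of the cilium and signalling class also had 24 h arrays wholly below, so 5 of all 40 kinesins did. In 0 kinesins the 24 h arrays lay wholly above, as in 3.6% of all genes. The transport median was -0.0099 and that of all genes -0.012. Kif20a had 2.90, 2.58, 3.13 and 2.83 at 24 h, against 3.29, 3.32, 3.18 and 3.33 at 6 h. The 24 h arrays of Kif20a lay below those at 6 h, with a difference of -0.42 ± 0.14 (adjusted p = 0.409, limma). The mitotic median was -0.18 within slide 1 and -0.64 within slide 2. Beside these values, 1 of 5 club markers was positive and none passed (median -2.08), with a mean level of -3.07 to -2.37 at 24 h and -2.04 to -0.98 at 6 h. Of 8 macrophage markers 7 were positive and 1 was higher (median 0.61), with a mean level of -2.02 to -0.73 at 24 h and -3.08 to -1.62 at 6 h. C1qa among them was above background on all 4 arrays at 24 h and on no array at 6 h. It passed the filter only through the NaHS 24 h arrays, so its difference is no support here. Of 7 smooth muscle and pericyte markers 6 were positive (median 0.53), and of 6 endothelial markers 4 were (median 0.30). Positive were also 3 of 8 fibroblast (median -0.23), 2 of 7 ciliated (median -0.23) and 0 of 4 basal markers (median -0.27). None in these 5 lists passed. Dnah9 and Ccdc39 of the ciliated list were above background on no array at 24 h. Of 9 type II markers 3 were positive and none passed (median -0.070, lowest difference -2.36). The mean level over all 10 type II markers was -0.0055 to 0.68 at 24 h and 0.47 to 1.78 at 6 h. The part of these markers in the values was not tested.

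**Figure D4:**
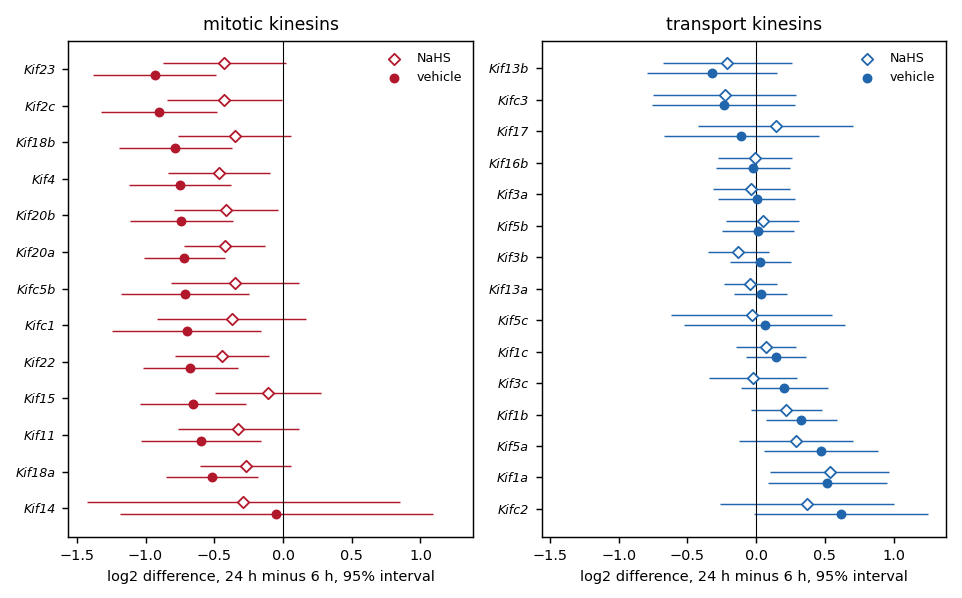
Log2 differences (x axis, 24 h minus 6 h, 4 arrays each) with 95% intervals for the mitotic (left) and transport kinesins (right), with NaHS (open diamonds) and with vehicle (filled circles). All 13 mitotic differences are negative in both, with medians of -0.37 with NaHS and -0.71 with vehicle.

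NaHS against vehicle at the same time moved no kinesin past the threshold. At 24 h 0 of 40 passed in limma, as did 0% of all genes, and 2 had an unadjusted p under 0.05, against 2.21% of all genes. With slide as a block 0 passed and 4 had an unadjusted p under 0.05, against 8.73% of all genes. With the replicate number as a block 0 passed and 5 had one, against 9.52% of all genes. Of the 13 mitotic kinesins 12 were positive, against 49.8% of all genes, with a median of 0.26, which was 0.46 within slide 1 and 0.13 within slide 2. Kif15 was one of the 2, with levels of -2.17, -2.25, -1.65 and -2.04 with NaHS, against -2.41, -2.70, -2.33 and -2.53 with vehicle. Its arrays did not overlap, as in 0.932% of all genes in that direction, and its difference was 0.47 ± 0.18 (95% interval 0.08 to 0.85, adjusted p = 0.99982, limma). Kif11 had -0.88, -1.49, -0.74 and -1.26 with NaHS, against -1.48, -1.41, -1.08 and -1.31 with vehicle, and its groups overlapped. In 0 kinesins the NaHS arrays lay wholly below those with vehicle, as in 0.746% of all genes, and the transport median was -0.034. Beside the mitotic values, none of the cell type markers passed either. All 5 club markers were positive (median 0.59), with a mean level of -3.07 to -2.37 with NaHS and -4.66 to -2.93 with vehicle. All 7 ciliated cell markers tested were positive (median 0.35), with a mean level over 8 of -3.06 to -2.57 with NaHS and -3.79 to -3.10 with vehicle. With vehicle, Scgb3a2 of the club list and Dnah5, Dnah9 and Ccdc39 of the ciliated list were above background on no array. With NaHS, Dnah9 and Ccdc39 were above it on no array. Of 9 type II markers 8 were positive (median 0.30), and of 8 fibroblast markers 2 were (median -0.23). Of 7 smooth muscle and pericyte markers 1 was positive (median -0.25), and of 8 macrophage markers 1 was (median -0.24). C1qa of the macrophage list was above background on all NaHS arrays and on no vehicle array at 24 h. It passed the filter only through those NaHS arrays, so its difference is no support here. Type I and endothelial markers each had 4 of 6 positive (medians 0.44 and 0.24), and basal markers 1 of 4 (median -0.12). The part of these markers in the mitotic values was not tested.

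At 6 h of NaHS against vehicle, 0 of 40 kinesins passed in limma, as did 0% of all genes, and 0 had an unadjusted p under 0.05, also with slide or replicate number as a block. In 0 kinesins the NaHS arrays lay wholly above or wholly below the vehicle arrays, as in 0.355% and 0.277% of all genes. The mitotic median was -0.054 and the transport median 0.052. In the limma test of the NaHS effect at 24 h minus that at 6 h, 0 of 40 passed, as did 0% of all genes, and 1 had an unadjusted p under 0.05, against 1.06% of all genes. The mitotic median of that difference was 0.32, which was 0.65 within slide 1 and -0.020 within slide 2. The comparisons of NaHS with vehicle use the same arrays as those over time.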

How the data were processed

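Total RNA of each sample was labelled with Cy3 and hybridised to 1 single-colour Agilent array. Spot intensity was extracted with Agilent Feature Extraction 10.7.3.1, per the submitters' processing notes, and the deposited processed intensities had background subtracted and were detrended, per the file headers. The deposited value table holds log2 values, and what made them is not given in the sources used here. Its columns of 1 experiment share their quantiles, so it was read as quantile normalized within each experiment and used as an alternative, with scale and centring otherwise unknown. Flags for signal above background are those of the deposited files.

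From each array's log2 processed signal its 75th percentile was subtracted, over probes outside the controls. Different probes of a gene were reduced to the brightest, and genes well above background on at least 4 arrays of an experiment were tested with limma 3.58.1 (R 4.3.3), with group means and no block, separately in each experiment. P-values are two-sided and Benjamini-Hochberg adjusted over all genes tested. The test was checked on simulated data with independent noise and no slide or replicate effect, so the check does not cover such effects. Probe names are those of the newer of the array's design versions, which differ in 1151 of 62976 spots. The arrays' number, 4 a group, limits the precision. The files held 0 columns of other samples.

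Same-numbered arrays deviated together (correlations of 0.54 to 0.75 in the NaHS experiment and 0.18 to 0.26 in the GYY4137 experiment), so the replicate number was fitted as a block as an alternative. In the NaHS experiment numbers lie within slides, and arrays of other numbers on the same slide correlated at 0.42 to 0.70.

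Kinesins, classes, partners and markers were chosen with earlier results of these data known. Values on every array are given for up to 14 genes called with the smallest p, for Kif5b, Kif3a, Kif1b and Kif1c, and for Kif11, Kif20a, Kif23, Kif2c and Kifc1. Partners are named by smallest p, up to 6 a list. Alternatives were normexp background correction (offset 50), quantile normalization, median centring, filters on dim probes, the deposited table, the mean of probes, blocks, single slides, the compared groups alone, stricter class members and leaving out each array. Probe coordinates are in mm9, and promoters are RefSeq's in GRCm38.p6.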

Additional observations from a re-analysis of the deposited data

Results flagged for a closer look

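In 21 of the 252 sets of 4 arrays looked at, 1 array stood far from the other 3 by Dixon's ratio, and chance flags about 1 in 20 groups. Among mitotic kinesins in 85% O2, replicate 2 was low for Kif20a (0.13, the others 0.82 to 0.87) and for Kif18a (-3.13, the others -2.74 to -2.66). In 21% O2, replicate 4 was low for Kifc1 (0.92, the others 1.63 to 1.76) and replicate 1 for Kif14 (-3.32, the others -2.79 to -2.72). Kifc1 was also low in NaHS 24 h replicate 2 (1.46, the others 1.88 to 1.94) and in vehicle 6 h replicate 2 (1.34, the others 2.26 to 2.35). In NaHS 6 h, Kif18b was low in replicate 3 (-1.42, the others -1.18 to -1.14) and Kif20b high in replicate 4 (1.79, the others 1.60 to 1.61).

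Among transport kinesins, Kifc2 was high in 85% O2 replicate 4 (-0.56, the others -1.03 to -0.97). Kif13b was low in NaHS 24 h replicate 3 (-4.40, the others -4.06 to -4.01). Kif5a was high in NaHS 6 h replicate 3 (-3.22, the others -3.81 to -3.71), and Kif3c in NaHS 6 h replicate 2 (0.41, the others 0.26 to 0.28). Kif17 was high in vehicle 6 h replicate 4 (-1.72, the others -2.61 to -2.52).

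Replicate 4 at 6 h was low for Kif26b both with NaHS (1.11, the others 1.81 to 1.95) and with vehicle (0.12, the others 1.82 to 1.92), and for Kif21b with vehicle (0.59, the others 2.49 to 2.82). Of the remaining genes, Kif24 was high in 85% O2 replicate 3 (0.13, the others -0.13 to -0.11), while 21% O2 replicate 1 was low for Kif26a (-4.71, the others -4.36 to -4.30) and Kif6 (-3.73, the others -3.09 to -3.00). Kif19a was low in NaHS 24 h replicate 4 (-1.85, the others -1.68 to -1.66), and Kif9 was high in vehicle 24 h replicate 1 (-3.11, the others -3.49 to -3.44).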

How the results depend on the processing

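The number of kinesins called between 85% and 21% O2 was 14 to 18 under the other settings and 13 to 17 without 1 array, against 16. With the replicate block it lost Kif18b and Kif1b and gained Kif21b. The NaHS comparisons and time with NaHS called 0 kinesins under all settings run. For 24 h against 6 h in vehicle, against 1 called, 6 were called with normexp, 7 with only genes above background on every array, 7 with the replicate block, 8 with slide as a block, and 0 with median centring, with no filter, within slide 1, within slide 2 and with only the groups compared. Calls over all genes moved as well. Of 33245 tested, 129 were higher and 75 lower by the main fit and 315 and 195 with normexp. With slide as a block they were 402 and 303, and with the replicate block 517 and 372. With only genes above background on every array they were 340 and 254 of 22432. Leaving out 1 array gave 0 to 8 kinesins called. The transport median for oxygen was 0.11 with median centring, 0.088 with the mean of probes, -0.045 without mainly neuronal members and 0.20 to 0.32 without 1 array. Over time with NaHS the mitotic median was -0.64 within slide 2, and the transport median was 0.070 within slide 1 and -0.035 to 0.094 without 1 array. For NaHS against vehicle at 24 h the transport median was -0.046 to 0.059 without 1 array, and the mitotic median of the change in NaHS effect was 0.65 within slide 1 and -0.020 within slide 2. Directions turned for Kif11 (-0.017), Kif18a (-0.0058) and Kifc5b (-0.089) within slide 2 for NaHS against vehicle at 24 h, for Kifc5b with normexp (-0.039) and for Kif3a in oxygen with the mean of probes (0.088). The cause of these changes was not tested. Over single genes and settings, 909 values kept direction and side of the threshold, 44 lost it, 33 gained it and 5 reversed. Dim probes such as those of Kif2b, Kif12 and Kif27 limit what can be said of them.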
